A study of Mus musculus with 34 samples.

Results

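The step between coronal fractions 7 to 9 and coronal fractions 10 to 12 of a mouse brain at 3 days after birth was described. It comprised 6 of the 34 fractions of the series: the members were the 6 coronal fractions numbered 7 to 12, 3 on each side. The whole series cut 3 male C57BL/6J brains, 1 for each body axis, into 15 coronal, 8 horizontal and 11 sagittal fractions. Each fraction pooled 100 slices of 5 μm, so that it was 500 μm wide, and its RNA was hybridised in 1 colour to an Agilent mouse array. All 6 fractions came from mouse 1, untreated, and they shared strain, sex and age. The fractions of a side are therefore neighbouring slabs of 1 brain. They are not repeats of a condition in several animals, and every p-value of the step sets it against the spread between neighbouring slabs.

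The diencephalon holds the thalamus, which relays sensory and motor signals to the cortex, the habenula above it, and the hypothalamus below it, whose nuclei release peptides that govern hormones, feeding and sleep. The telencephalon in front of and above it holds the cortex, the hippocampus and, deeper, the striatum, whose GABA-releasing projection neurons respond to dopamine, and the cholinergic neurons of the basal forebrain. Transcription factors laid down in the embryo still mark these divisions after birth: Tcf7l2, Lhx9 and the Iroquois genes in the diencephalon and midbrain, and Emx1, Tbr1 and the Dlx genes in the telencephalon.

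The sample labels give a slice number and no region, so the regional content was read from marker genes. Emx1, a transcription factor of the cortical part of the telencephalon, had log2 levels from 0.44 to 0.649 in fractions 7, 8 and 9 and from 0.968 to 1.13 in fractions 10, 11 and 12, against a mean of -3.95 in fractions 1 to 6. Tbr1 of cortical projection neurons had levels from 3.85 to 4.49 on the first side and from 4.20 to 4.88 on the second, against a mean of -0.54 in fractions 1 to 6. Telencephalic tissue was thus measured on both sides. Diencephalic genes such as Tcf7l2, Lhx9 and Ntng1 were high in 7 to 9 and low in 10 to 12. The contrast is therefore called here the step from fractions 7-9 to fractions 10-12, since a plain border between diencephalon and telencephalon goes against these values. Because bulk tissue was measured, fewer cells of a type and less RNA per cell cannot be told apart.

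Levels are the deposited log2 values, each relative to its array, so that a difference of 1 is a 2-fold change and levels of different probes are not compared. A probe was kept when the scanner software found it well above background on at least 2 of the 6 arrays. That left 32674 of 43199 probes, of which 20343 carried a gene symbol, for 15412 genes. Among the kept probes, 27381 were well above background on all 6 arrays. A sharp step means that the 3 values of one side all lay above the 3 of the other and that the means differed by at least 1. The arrays of fractions 10 to 12 were dimmer: the lowest level that still counted as well above background was -4.80, -4.80 and -4.35 in fractions 10, 11 and 12, and -5.08, -5.48 and -5.42 in fractions 7, 8 and 9. For a gene below background on a whole side, only the bound "at least N-fold" is given, computed against those levels. Fractions 7 and 8 lay on slide 2, fractions 9, 10 and 11 on slide 3 and fraction 12 on slide 5, so the difference between fraction 9 and the mean of 10 and 11 is a comparison within 1 slide.

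The step was gradual. Sharp differences were found for 297 probes higher in 10-12 (0.909% of those kept) and for 442 probes lower in 10-12 (1.35%). With 1 probe a gene these were 139 genes (0.902%) and 256 genes (1.66%). Sides that did not overlap, whatever the size of the difference, were much more frequent, with 7277 probes higher (22.3%) and 4681 lower (14.3%). By limma with Benjamini-Hochberg adjustment no probe passed an adjusted p of 0.05 in either direction (0.0% and 0.0%). The smallest adjusted p was 0.0992, and 8920 probes had an unadjusted p under 0.05, 5433 of them higher (16.6%) and 3487 lower (10.7%). With a spread that depends on the level, limma-trend called 742 probes higher (2.27%) and 676 lower (2.07%), and with 1 probe a gene 2.31% of genes higher and 3.1% lower. On simulated arrays with independent normal noise, limma recovered 73 of 100 probes planted with a difference of 2 and 33 of 100 planted with a difference of 1. The simulation took each probe's spread within the sides of these 6 arrays as known and had no gradient along a side. These shares therefore do not tell how many real steps limma missed here. An exact permutation test of 3 against 3 cannot give a two-sided p below 0.1. The genes below are accordingly described by their values, and no single step is called significant. Sharp steps numbered 176 higher and 174 lower among probes well above background on all 6 arrays.

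**Figure D1:**
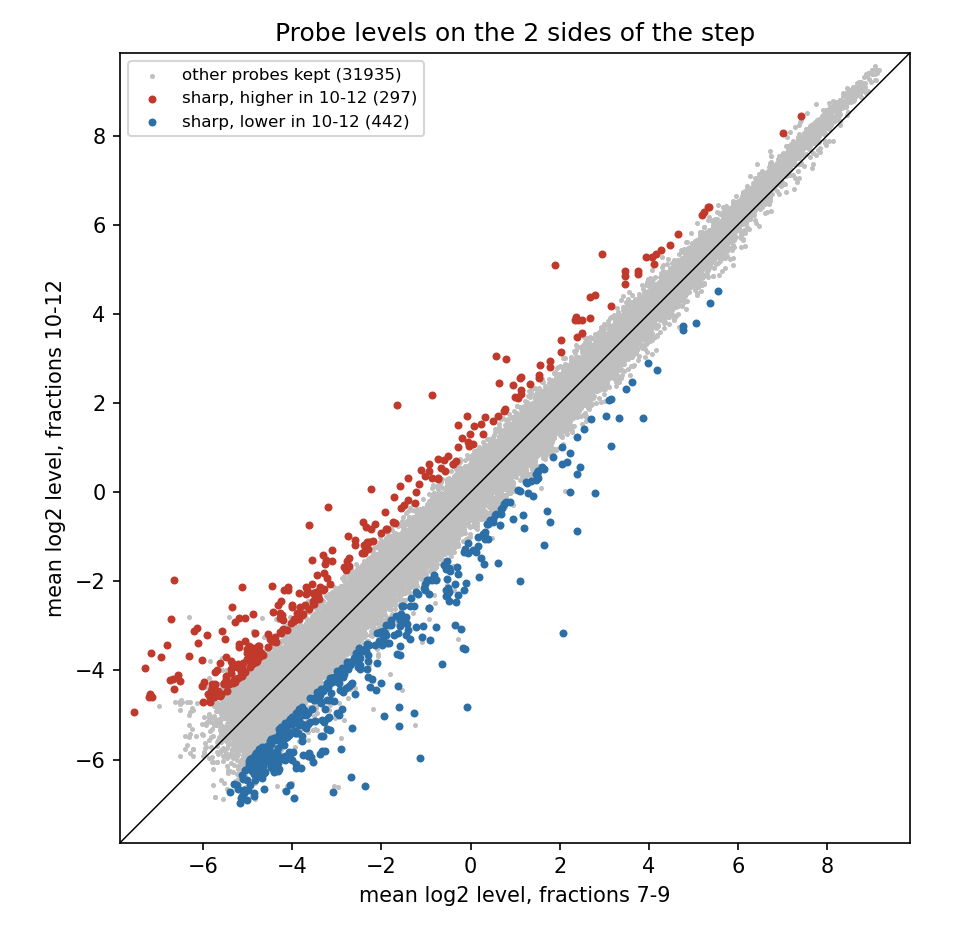
Mean log2 level of each of the 32674 kept probes in fractions 7-9 (x axis) and in fractions 10-12 (y axis), with the line of equal levels. Red points are the 297 sharp probes higher in 10-12 and blue points the 442 lower in 10-12; the cloud is narrow for bright probes and wide for dim ones, and most of the sharp probes are dim.

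Between the neighbouring fractions 9 and 10, 129 of the 25566 probes that were well above background in all 15 coronal fractions differed by 1 or more, 73 higher and 56 lower in fraction 10. Of the 14 pairs of neighbours along the coronal series this was the lowest count, and the highest was 812, between fractions 14 and 15. Probes not detected in all 15 fractions did not enter this count. Of the 739 sharp probes, 389 were not well above background on all 6 arrays and were thus left out. Fractions 9 and 10 lay on 1 slide, whereas some other pairs did not. The median absolute change between fractions 9 and 10, 0.154, was not the lowest, since fractions 5 and 6 differed by a median of 0.0962. Fractions 11 and 12, on different slides, differed by 1 or more at 413 probes. Among the sharp probes, the largest of the 5 changes from fraction 7 to fraction 12 lay between 9 and 10 for 43.4% of those higher and 47.1% of those lower in 10-12, against 27.9% and 28.5% of all kept probes. The rule that the sides do not overlap favours that interval, so these shares describe the probes chosen. The majority of the sharp probes in each direction had their largest change inside one of the sides.

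**Figure D2:**
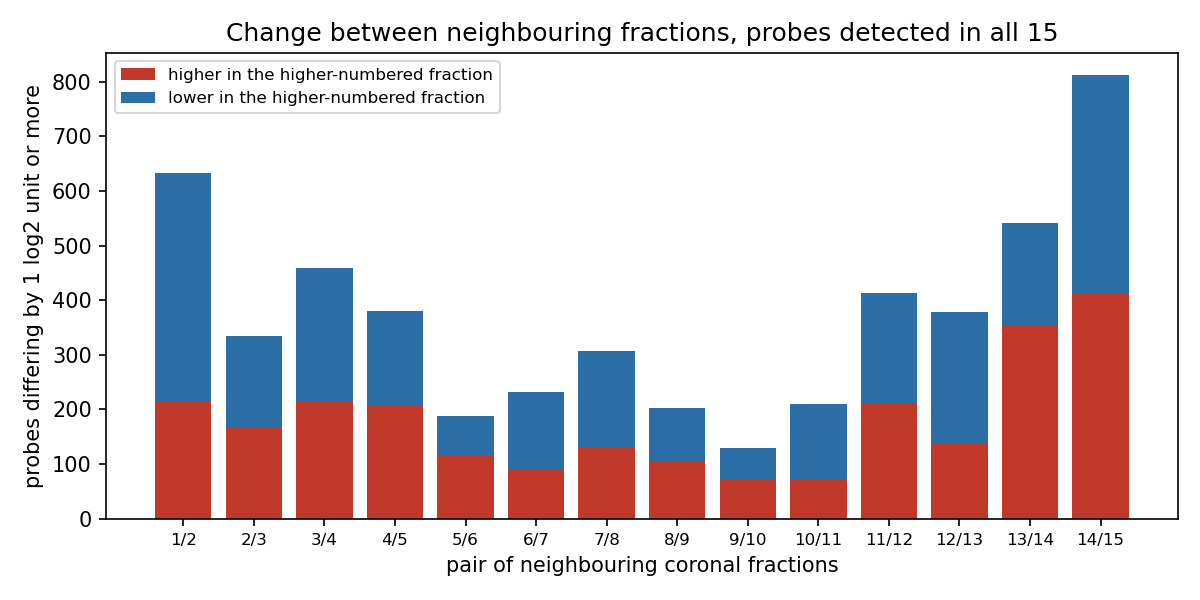
Number of probes that differed by 1 log2 unit or more between each pair of neighbouring coronal fractions, among the 25566 probes well above background in all 15 (bars from 0, red for higher and blue for lower in the higher-numbered fraction). The bar for 9/10 is the lowest, at 129, and the bar for 14/15 the highest, at 812.

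The largest steps downwards were those of hypothalamic, thalamic and Iroquois genes. Pmch, which encodes melanin-concentrating hormone of the lateral hypothalamus (probe A_52_P418814), had levels of 3.11, 3.47 and -0.387 in fractions 7, 8 and 9 and of -2.84, -3.54 and -3.07 in fractions 10, 11 and 12. Both sides were apart by 2.45 between their nearest values, and the difference was -5.22 ± 1.00 (SE), or -2.805 within slide 3. Part of the fall lay inside the first side, since fraction 9 was already below fractions 7 and 8. Hcrt, the orexin precursor of the same hypothalamic zone, had levels of 2.09, 3.14 and -0.271 and then of -1.38, -1.0 and -1.19. Npvf, an RFamide peptide of the dorsomedial hypothalamus, had levels of 0.034, -0.401 and -4.47 and then of -4.80, -4.47 and -5.19. For Npvf the sides touched, with 0.005 between the nearest values, and the difference within slide 3 was -0.17 against -3.21 over all 6 fractions. These 3 peptides were high in fractions 7 and 8 and lower from fraction 9 on. For Pmch and Hcrt, fraction 9 still lay above fractions 10 to 12. The arcuate peptides Agrp and Ghrh followed the same course without separating the sides: Agrp had levels of 1.07, 1.07 and -3.01 and then of -2.90, -4.01 and -3.02.

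Other hypothalamic peptides crossed the step instead. Oxt (oxytocin) had levels of -2.81, 2.39 and 2.42 in fractions 7 to 9 and of 1.62, -1.77 and -2.21 in fractions 10 to 12. Avp (vasopressin), made like oxytocin by the large neurons of the paraventricular and supraoptic nuclei, had levels of -1.01, 3.63 and 3.73 and then of 1.62, -0.847 and -0.722. For both genes fraction 10 lay below fractions 8 and 9 and above fractions 11 and 12, and fraction 7 was low, so the sides overlapped. Hmx2 and Hmx3, homeobox genes of the hypothalamus, were highest of all 15 coronal fractions in fraction 10, at -1.47 and -1.07, and low in the neighbouring fraction 9, at -5.48 and -5.14. Nkx2-1, which is shared by the hypothalamus and the ventral telencephalon, had levels from -2.10 to -1.1 in 7-9 and from -2.01 to -0.623 in 10-12. Hypothalamic genes differed in where they ended: of 22 kept genes of the hypothalamic list, 5 were sharply lower in 10-12 (Pmch, Six6, Hcrt, Fezf1 and Lhx1), 16 had overlapping sides and none was sharply higher. Of all genes, 1.66% were sharply lower, and 22.2% and 18.6% had sides apart in the 2 directions. The median difference of the list was -1.15, and -0.24 within slide 3, against 0.0689 over all kept probes. Cga, the common subunit of the pituitary hormones, had levels of -0.747 and -1.35 in fractions 7 and 8 and of -6.80 in fraction 9, and Pitx1, a factor of the same gland, had -2.84, -3.95 and -7.73; 5 of the 12 muscle and pituitary genes in the table, Tshb and Prl among them, were not kept. The part of attached pituitary tissue in the hypothalamic values was not tested.

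Transcription factors of the hypothalamus and of the mammillary region made up several of the other large differences. Vgll2, a cofactor of TEAD factors, had levels of 0.298, 1.31 and -1.85 and then of -4.20, -5.14 and -5.11. Six6, a homeobox gene of the ventral hypothalamus and the eye, had levels of -3.0, -1.69 and -1.15 and then of -3.24, -5.56 and -6.25, with its peak in fraction 9. Foxb1, a marker of the mammillary bodies, had levels of 1.63, -0.59 and -1.58 and then of -3.65, -3.81 and -3.06. Foxa1, of the floor of the midbrain, had levels of 1.25, -1.0 and -3.63 on the first side and was not well above background in any fraction of the second, which gives a level at least 11.5-fold higher in 7-9. Dbx1, a homeobox gene of progenitors, was well above background at -2.98, -2.34 and -3.92 and in no fraction of 10-12, at least 2.97-fold higher in 7-9. Epha1, an ephrin receptor, was at least 4.00-fold higher in 7-9 by the same reckoning. Vgll2 and Six6 had their coronal peaks in fractions 8 and 9, with means of -4.84 and -7.08 in fractions 1 to 6, whereas Foxa1 and Foxb1 were highest in fraction 6.

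Several thalamic genes had similar levels in fractions 7 to 9 and lower ones from fraction 10 on. Tcf7l2, a nuclear effector of Wnt signalling that is kept in thalamic neurons (probe A_55_P2030160), had levels of 2.96, 2.98 and 2.42 in fractions 7, 8 and 9 and of 0.595, -0.333 and -0.316 in fractions 10, 11 and 12. The gap between the sides was 1.82 and the difference -2.80 ± 0.30 (SE; 6.99-fold), and all 3 kept probes of the gene separated the sides. Lhx9, a LIM homeobox gene, had levels of 1.74, 2.70 and 2.75 and then of 0.652, -1.54 and -1.74, so that fraction 10 was intermediate. Ntng1, netrin G1 of thalamic axons, had levels of 2.25, 2.59 and 1.84 and then of 0.47, -0.055 and -0.374. Slc17a6, the vesicular glutamate transporter of subcortical neurons, had levels of 3.13, 3.38 and 2.91 and then of 1.72, 0.843 and 0.551. Slitrk6, Rora, Calb2 and Nell1 were also sharply lower in 10-12, by 2.22, 1.37, 1.41 and 1.04. Gbx2, which specifies thalamic neurons, missed the rule by a small overlap, with levels of -0.454, 1.15 and 0.75 and then of -0.421, -1.1 and -1.57. Some thalamic markers hardly differed: Foxp2 differed by -0.24 and Zic4 by -0.10 with overlapping sides, and Prkcd was higher in 10-12 by 0.32. Of 19 kept genes of the list, 9 were sharply lower and none sharply higher, against 1.66% and 0.902% of all genes. The median difference was -1.04 (-0.68 within slide 3).

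Of 10 kept genes of the habenula and pineal gland, 3 were sharply lower in 10-12 (1.66% of all genes), 5 had overlapping sides and none was sharply higher. The median difference was -0.92, and -1.33 within slide 3. Pou4f1, a transcription factor of habenular neurons, had levels of -0.58, 0.078 and -0.137 and then of -3.57, -3.25 and -2.38, a gap of 1.80. In fractions 1 to 6 it was higher than in any fraction of 7-9, at 1.44 to 2.24, so it was not limited to the first side. Nhlh2 had levels of -0.475, -0.225 and -0.159 and then of -1.58, -2.70 and -2.65. Gng8, a G protein subunit of the habenula, had levels of 0.43, 1.62 and 1.58 and then of -0.378, -0.363 and -1.66. For these 3 genes the difference within slide 3, -3.27, -1.98 and -1.95, was close to that over all 6 fractions. The nicotinic receptor gene Chrnb4 and the peptide gene Tac2 differed by -1.01 and -0.72 with overlapping sides, Chrna3 and Gpr151 were not well above background in any fraction of 10-12, and Aanat, an enzyme of melatonin synthesis in the pineal gland, differed by 0.30. Tph1, the serotonin-forming enzyme of the pineal gland, stood out in fraction 8 alone, at 1.95 against values from -3.85 to -2.44 in the other 5.

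Genes of the Iroquois family, homeobox factors shared by midbrain and diencephalon, were lower together: Irx1, Irx2, Irx3, Irx5 and Irx6 were all sharply lower in 10-12. Irx1 had levels of 2.29, 1.87 and 1.20 and then of -0.597, -0.698 and -0.718, values that differed little within the second side. Irx2 had levels of 0.20, -0.802 and -1.36 and then of -4.46, -3.87 and -3.22, and Irx3 of -0.521, -1.79 and -2.58 and then of -3.72, -4.84 and -4.47. For all 5 the level was highest in fraction 7 and lowest in fraction 9 within the first side, so part of the difference lay before the border. The Zic genes of the same list behaved otherwise: Zic2 was sharply lower, by 1.06, while Zic1 and Zic5 differed by -0.43 and -0.27 with overlapping sides. Midbrain and pretectal genes differed mostly within the first side. Gata3 had levels of 1.1, -1.12 and -2.70 and then of -3.75, -3.27 and -2.97, and the median difference of the 16 kept genes of that list was -1.27 over all 6 fractions but -0.13 within slide 3. Of the 16, 4 were sharply lower, Foxa1, Gata3 and Lmx1a among them, and none was sharply higher. The shares of all genes were 1.66% lower and 0.902% higher.

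The 3 sharp genes of the Wnt list were all lower in 10-12. Wnt9b, a secreted ligand, had levels of -1.27, -1.05 and -1.51 and then of -4.12, -4.77 and -5.96, a gap of 2.61 between the sides. Fzd10, a Wnt receptor, had levels of 0.05, 0.658 and -0.122 and then of -1.68, -2.43 and -1.59. Wnt3 had levels of -1.23, -0.605 and -0.932 and then of -2.41, -2.94 and -2.44. For these 3 genes the values of fractions 7 to 9 lay close together, unlike those of the hypothalamic peptides. Of 22 kept genes of the Wnt list, 3 were sharply lower and none sharply higher, against 1.66% and 0.902% of all genes. Sides were apart in 3 genes higher and 7 lower in 10-12, against 22.2% and 18.6% of all genes. Limma-trend called 1 higher and 4 lower, against 2.31% and 3.1%. The median difference was -0.40.

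In the other direction the leading group of the 23 lists was that of striatal projection neurons, with 16 of 24 kept genes sharply higher in 10-12 and none sharply lower. All lists were chosen with earlier results of these data known, so such counts are a description. Of all genes, 0.902% were sharply higher and 1.66% sharply lower. Sides were apart in 21 of the 24, all higher in 10-12 (22.2% of all genes), and the median difference was 1.22 (0.89 within slide 3). Ppp1r1b (DARPP-32), the phosphatase inhibitor through which dopamine signals act in these neurons, had levels of 0.737, 1.75 and 3.17 and then of 4.51, 5.37 and 5.43. Its difference was 3.22 ± 0.62 (SE; 9.32-fold), and its level was already higher in fraction 9 than in fractions 7 and 8. Rarb, a retinoic acid receptor, had levels of 0.206, 0.274 and 1.21 and then of 2.36, 3.25 and 3.58. Rxrg, its dimer partner, had levels of 2.40, 2.60 and 3.83 and then of 4.73, 5.58 and 5.74. Fraction 9 lay between fractions 7 and 8 and fractions 10 to 12 for all 3 genes.

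Receptors that divide the striatal output neurons into 2 classes were both included. Drd1, the dopamine receptor of the direct pathway, had levels of -2.07, -1.58 and -0.544 and then of 0.119, 0.607 and 0.248. Drd2, that of the indirect pathway, had levels of -3.57, -3.55 and -3.30 and then of -2.42, -2.03 and -2.27. Adora2a, an adenosine receptor found with Drd2, had levels of -0.854, -0.091 and 0.703 and then of 1.41, 2.12 and 1.62. The differences were 1.72, 1.23 and 1.80. Peptides of the same neurons differed more between genes: Penk (enkephalin) was higher by 1.5, Tac1 (substance P) by 0.44 and Pdyn (dynorphin) by 0.08. Gng7, Ikzf1, Arpp21, Pde10a and Foxp1 were sharply higher too, by 1.62, 2.04, 2.20, 1.09 and 1.18; for Arpp21 only 1 of 3 kept probes separated the sides. The peak of Drd1, Drd2, Adora2a and Penk in the 6 fractions lay in fraction 11.

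Dlx genes and other regulators of forebrain GABA neurons were higher in 10-12 by less. Dlx5 had levels of -1.29, -0.984 and -0.52 and then of -0.059, 0.619 and 0.848, and Dlx6 of -3.11, -2.16 and -1.77 and then of -0.879, -0.827 and -0.661. Gsx2, a factor of their progenitors in the lateral ganglionic eminence, had levels of -3.43, -3.37 and -2.99 and then of -2.55, -1.67 and -0.616. Dlx1as, Dlx6os1, Meis2 and Sp8 were the other sharp members. In total 7 of 20 kept genes were sharply higher and none sharply lower, against 0.902% and 1.66% of all genes. Gad1 and Gad2, which form GABA in all such neurons, differed by -0.16 and 0.21 with overlapping sides, and the median difference of the list was 0.89 (0.37 within slide 3).

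Basal forebrain genes were led by Lhx8, the LIM homeobox gene of cholinergic neurons, with levels of -3.36, -0.23 and 1.02 and then of 2.43, 2.82 and 1.31. Its levels in fractions 1 to 6 did not exceed -5.34, and its range over fractions 7 to 9 was wider than the gap of 0.30 between the sides. Chat, the enzyme that forms acetylcholine, was higher by 1.36 with a gap of 0.05. Of 13 kept genes of the list, 3 were sharply higher, Lhx8 and Chat among them (0.902% of all genes), and none sharply lower. The median difference was 0.59. Slc5a7, the choline transporter, and Ngfr, a neurotrophin receptor of the same neurons, differed by -0.06 and -0.01, and Nts (neurotensin) was lower in 10-12 by 0.89. Gnrh1, the peptide that drives the reproductive axis, was not well above background in fractions 7 to 9 and had levels of -4.15, -2.72 and -4.16 in fractions 10 to 12, at least 3.13-fold higher there.

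Cortical projection neuron genes differed by small amounts, with a median of 0.29. Of 25 kept genes, Bcl11b and Pou3f2 were sharply higher, by 1.71 and 1.05, and none was sharply lower, against 0.902% and 1.66% of all genes. Sides were apart in 12 genes higher and 4 lower in 10-12, against 22.2% and 18.6% of all genes, and limma-trend called 5 higher, against 2.31%. Bcl11b is a factor of both deep cortical neurons and striatal neurons. Slc17a7, Fezf2 and Neurod6 differed by 0.38, 0.13 and 0.21. Nr4a2 was lower in 10-12 by 0.81, with levels of 3.95, 3.22 and 2.94 and then of 2.73, 2.45 and 2.50. In the hippocampal list 2 of 14 genes were sharply lower: Prox1 of dentate granule cells had levels of -2.06, -1.31 and -1.01 and then of -2.32, -3.68 and -3.59, and C1ql2 was lower by 1.78.

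The largest single difference upwards did not belong to a neuronal list. Retnla, a secreted resistin-like protein of macrophages and other immune cells (probe A_51_P257951), was not well above background in fractions 7 to 9 and had levels of -1.95, -1.88 and -2.05 in fractions 10, 11 and 12. Those 3 values differed by less than 0.2, and the level was at least 10.3-fold higher than in 7-9. Outside this side it was low again, with levels up to -6.60 in fractions 1 to 6 and from -6.20 to -3.90 in fractions 13 to 15. None of the 10 kept microglial genes was sharp, with a list median of 0.22. Fgf3, a growth factor, was likewise below background in 7-9 and had levels of -3.98, -2.67 and -1.90 in 10-12, at least 5.55-fold higher, but its mean in fractions 1 to 6 was -3.40. Dct, an enzyme of melanin synthesis, had levels of -4.41, -2.21 and -4.22 and then of -1.28, -0.705 and -0.26. Zar1l, Gm7244, Mhrt, Nkx2-3, Unc93a, Wfdc18 and Cd2 complete the 15 genes named by size in this direction; of the 15, 5 were not well above background in any fraction of 7-9 and only 5 were well above background on all 6 arrays.

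**Figure D3:**
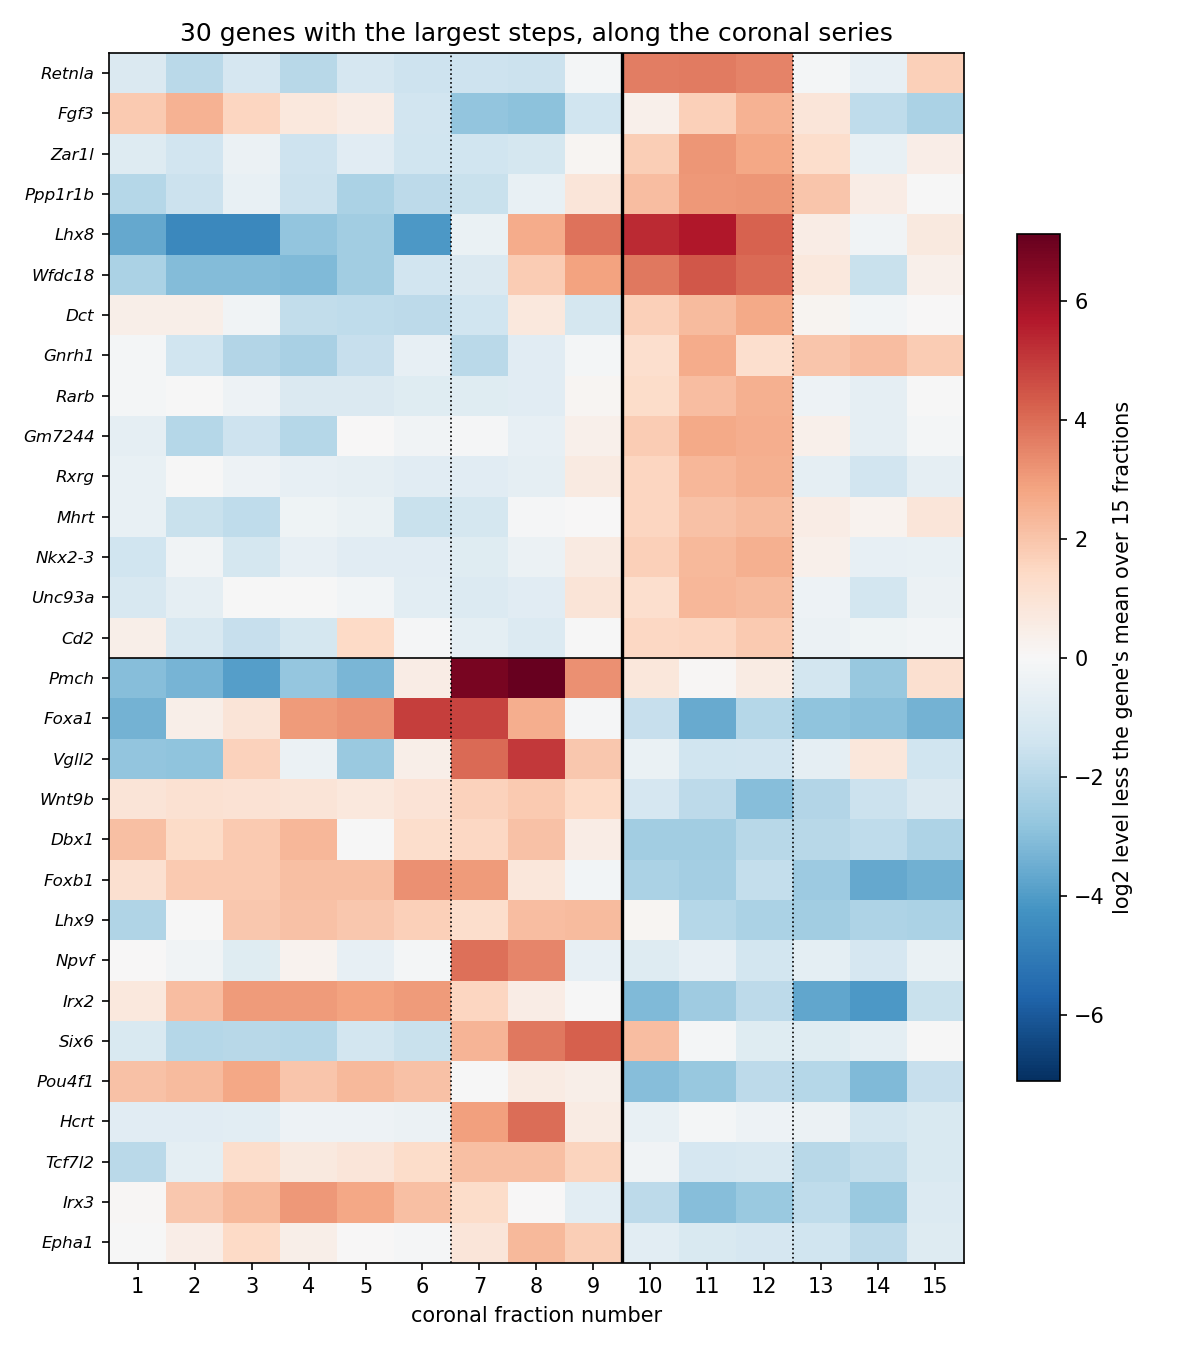
Log2 level of the 30 genes with the largest steps (15 higher and 15 lower in 10-12, italic symbols on the y axis) in the 15 coronal fractions (x axis), each less the gene's mean over the 15. The thick line marks the border between fractions 9 and 10; the upper 15 genes all peak in fractions 10 to 12, whereas the lower 15 peak in fractions 7 to 9 (9 genes) or already in fractions 1 to 6 (6 genes).

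Over the 30 genes named by size, the limma adjusted p ranged from 0.0992 to 0.154. They were chosen on these 6 arrays for their size and for sides that do not overlap, so these p-values are a description of the choice. Within slide 3, where the sign is fixed by the same choice, the differences ranged from 0.88 to 3.83 for the genes higher and from 0.17 to 3.27 in size for the genes lower in 10-12.

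Gene lists for cells that are spread through the brain held few sharp genes, as did all genes (0.902% higher and 1.66% lower). These lists are too short to weigh such counts against that background. Sides were apart in 4 of 6 red blood cell genes, all higher in 10-12 (22.2% of all genes). They were apart and lower in 5 of 12 meningeal genes, with none higher, and in 7 of 15 oligodendrocyte genes, with 3 higher (18.6% of all genes lower). All 13 choroid plexus genes had overlapping sides. The choroid plexus, meningeal, vascular, microglial, red blood cell, and muscle and pituitary lists had no sharp member, with median differences of -0.05, -0.30, -0.10, 0.22, 0.41 and -0.19. Red blood cell genes had list medians of 0.10, 0.10 and 0.20 in fractions 7 to 9 and of 0.19, 0.57 and 0.87 in fractions 10 to 12, and the part of blood in the other values was not tested. Of the oligodendrocyte list Gjc3, and of the astrocyte list Agt, were sharply lower. Mag of myelin, with levels of 0.202, 0.189 and 0.028 and then of -0.475, -0.944 and -1.09, missed the size limit with a difference of -0.98. Among 38 kept genes of the axon guidance list, Ntn1 (netrin 1) was sharply higher by 1.37 and Robo3 sharply lower by 1.24. Epha1 and Ntng1, sharply lower and described above, were not on that list. Crabp1 was the sharp gene of the retinoic acid list, higher by 1.45, and Igfbpl1 that of the newborn neuron list, higher by 1.1. The retinoic acid receptor gene Rarb and its partner Rxrg, sharply higher, were counted in the striatal list instead. Slc6a4, the serotonin transporter, was the sharp gene of the hindbrain list, with levels of -0.824, -0.659 and -2.21 and then of -3.49, -2.95 and -2.66.

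**Figure D4:**
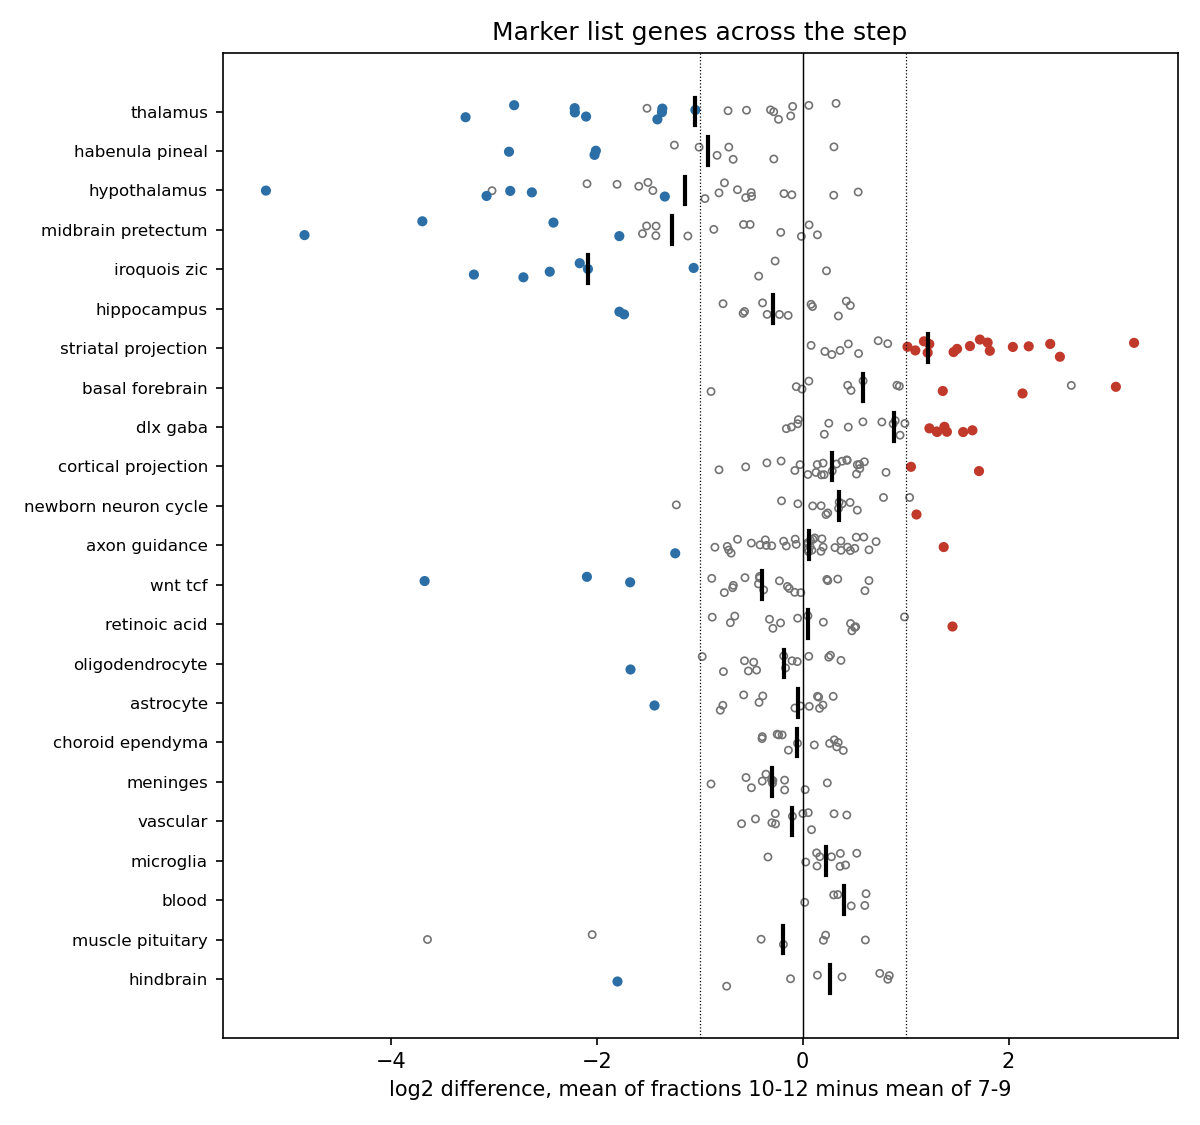
Difference between the mean of fractions 10-12 and the mean of fractions 7-9 (log2, x axis) for each kept gene of the 23 marker lists (1 probe a gene). Filled points are sharp steps, red higher and blue lower in 10-12, open points are not sharp, the black bars are list medians and the dotted lines mark differences of -1 and 1; striatal, basal forebrain and Dlx genes lie to the right (medians 1.22, 0.59 and 0.89), and thalamic, habenular, hypothalamic, midbrain and Iroquois genes to the left.

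Along the whole coronal series, the genes on both sides of the step had different ranges. Striatal genes were highest in fractions 10 to 12: their median level less their own mean over the 15 fractions was -0.21, -0.13 and 0.28 in fractions 7 to 9, 0.69, 1.30 and 1.20 in fractions 10 to 12, and 0.06 in fraction 13. Thalamic genes had 0.41, 0.53 and 0.26 and then -0.13, -0.48 and -0.76, after values from 0.21 to 0.53 in fractions 3 to 8. Among the sharp probes lower in 10-12, the mean of fractions 1 to 6 was nearer the high side for 75.6% and the mean of fractions 13 to 15 for 19.9%. Among the sharp probes higher in 10-12, these shares were 16.8% and 52.5%, and over all kept probes they were 38.9% and 52.7%, so the share of 52.5% was close to that of all probes. A level at least 1 below the high side in both neighbouring stretches was found for 29.3% of the probes higher and 12.0% of the probes lower in 10-12, against 1.52% of all kept probes. The sharp probes were chosen for a high side at least 1 above the other side, which favours such a level. The excess over all kept probes therefore describes the probes chosen.

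**Figure D5:**
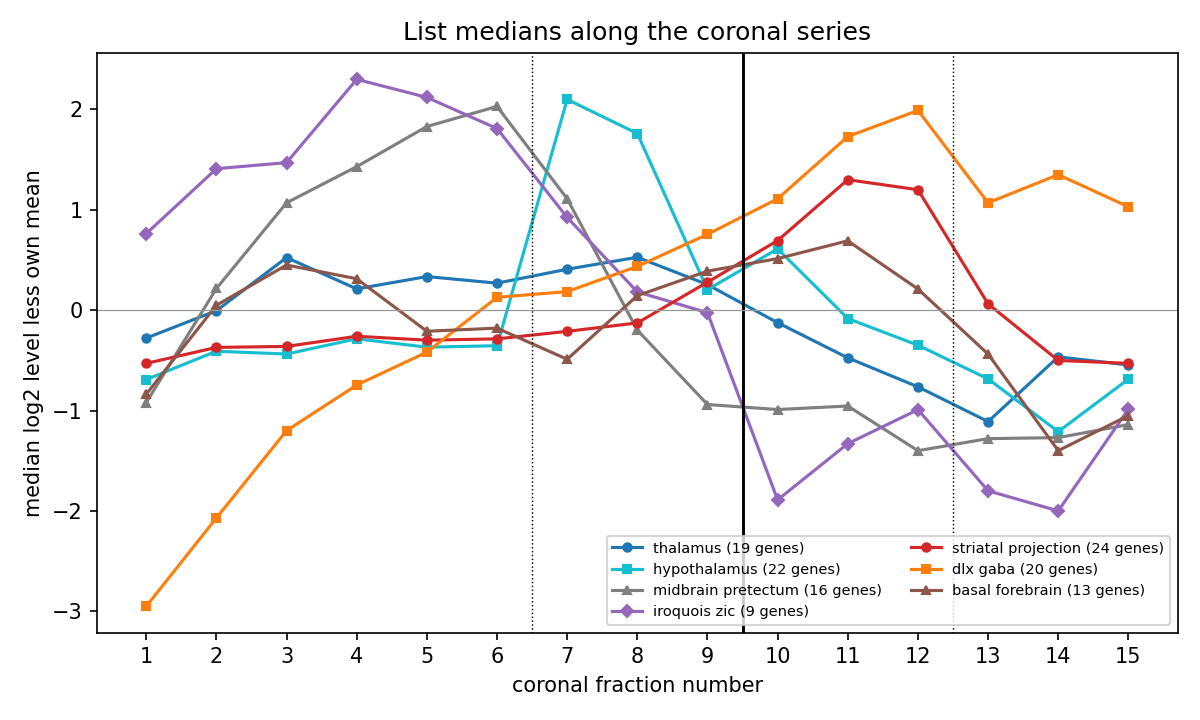
Median over the kept genes of 7 marker lists of the log2 level less the gene's own mean over 15 fractions (y axis) in each coronal fraction (x axis); the thick line is the border between fractions 9 and 10 and the dotted lines bound fractions 7-12. The striatal median is highest in fraction 11, at 1.30, and the hypothalamic one is highest in fractions 7 and 8, at 2.10 and 1.76. The hypothalamic median is lower from fraction 9 on, at 0.21 in fraction 9 and 0.61 in fraction 10, so it does not fall across the marked border.

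A measure that the step did not use came from the sagittal series, cut from another mouse. Its fractions 5 to 7, taken as the middle by their numbers, were set against the outer fractions 1 to 3 and 9 to 11 with limma. These p-values set the middle against the spread between slabs of 1 brain, with both outer ends pooled. Of the 442 sharp probes lower in 10-12, 75 (17.0%) were higher in the middle with an adjusted p under 0.05 and 5 (1.13%) were lower, against 2.13% and 2.28% of all kept probes. Of the 297 sharp probes higher in 10-12, 47 (15.8%) were lower in the middle and 9 (3.03%) were higher. Within sagittal slide 4 alone, with 3 fractions a side, 3 and 9 of these calls were made (0.0520% and 0.0551% of all kept probes). Among the named genes, 7 of the 15 lower in 10-12 were higher in the sagittal middle, by 3.82 for Dbx1, 4.64 for Foxa1, 4.17 for Vgll2, 4.02 for Six6, 3.09 for Npvf, 3.69 for Pou4f1 and 2.73 for Epha1. Oxt and Trh, whose sides overlapped at the coronal step, were higher in the sagittal middle too, by 4.28 and 1.98 (limma adjusted p of 0.00616 and 0.00346). Ppp1r1b, Retnla and Wfdc18 were lower in the middle, by 2.34, 4.71 and 3.02, and Dct was higher, by 3.59. The striatal genes Arpp21, Gng7, Drd1 and Adora2a were lower in the middle by 2.48, 1.45, 1.48 and 2.00, while Drd2 and Penk differed by -0.16 and 0.002, with adjusted p of 0.776 and 0.998.

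Presence against absence was nearly one-sided in number but not in size. There were 483 probes well above background in all of 7-9 and in none of 10-12, and 12 with the opposite pattern. For 22 of the 483 the bound reached 2-fold, as it did for all 12 of the others, while under the software's weaker flag, which asks only for a signal significantly above background, the counts were 14 and 1. Those 12 included Fgf3, Retnla, Zar1l, Gm7244 and Gnrh1, named above, and Pou3f4, a POU factor of the striatum, at least 2.83-fold higher in 10-12.

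Probes for long noncoding RNAs, named here by their intervals on mouse build mm9, were kept in 5995 cases, and the 5 with the largest steps in each direction are described. The largest steps downwards came from 3 probes of 1 interval, chr8:83210957-83219451 on the forward strand. The probe A_30_P01027176 there had levels of -0.41, 0.084 and -0.141 and then of -1.80, -2.29 and -2.47, and A_30_P01018173 and A_30_P01032677 differed by -2.24 and -1.96, so the 3 probes gave similar values. This interval was lower still in fractions 13 to 15, with a mean of -4.92 for A_30_P01027176. Upwards, 3 of the 5 probes with the largest steps again shared a place: A_30_P01026421 and A_30_P01018705 both covered chr11:33442089-33444467 on the reverse strand, inside the interval chr11:33414450-33450750 of A_30_P01017787. Their differences were 3.08, 1.90 and 1.79, and the first of them was well above background in only 1 of fractions 7 to 9. Of the other pair, A_30_P01031324 at chr2:115900355-115900904 was well above background on all 6 arrays, with levels of -1.87, -1.57 and -1.32 and then of -0.288, 0.445 and 0.237.

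Promoters of the sharp genes, from 250 bases before to 50 after the start of the RefSeq gene on build GRCm38.p6, were searched on both strands for 3 short motifs. The TCF/LEF motif CTTTGAT was in 6 of 195 promoters of genes lower in 10-12 (3.08%) and in 2 of 98 of genes higher (2.04%), against 3.72% of all 27025 promoters. The homeodomain core TAATTA was in 12 of 195 (6.15%) and 4 of 98 (4.08%), against 5.31%, and the nuclear receptor motif AGGTCA in 11.3% and 13.3%, against 16.0%. In the 12214 promoters of all genes kept, the shares were 2.46% for CTTTGAT, 2.91% for TAATTA and 12.6% for AGGTCA, so that TAATTA was more frequent in the promoters of genes lower in 10-12 than in those of genes kept, by a few promoters and without a test. A match of this length is a description only. The promoters of 4 step genes that hold a motif are shown, 2 for each of the first 2 motifs, with the motif in capitals: Nr2f2, a nuclear receptor lower in 10-12 by 2.20 and chosen after its values were seen (chr7:70366697-70366996, minus strand), Gng7 (chr10:81014876-81015175, minus strand), Npvf (chr6:50654396-50654695, minus strand) and Dlx6os1 (chr6:6869484-6869783, minus strand).
Nr2f2: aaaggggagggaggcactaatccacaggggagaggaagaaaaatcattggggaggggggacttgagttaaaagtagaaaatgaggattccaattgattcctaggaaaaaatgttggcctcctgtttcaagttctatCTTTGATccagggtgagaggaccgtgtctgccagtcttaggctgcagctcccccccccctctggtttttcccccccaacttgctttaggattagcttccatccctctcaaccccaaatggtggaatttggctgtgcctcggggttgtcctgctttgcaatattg
Gng7: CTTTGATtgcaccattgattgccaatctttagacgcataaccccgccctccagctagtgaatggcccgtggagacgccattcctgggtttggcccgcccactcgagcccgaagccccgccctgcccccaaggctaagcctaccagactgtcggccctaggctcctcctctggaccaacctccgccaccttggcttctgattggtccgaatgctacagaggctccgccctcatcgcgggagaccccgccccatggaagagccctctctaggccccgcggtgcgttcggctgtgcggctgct
Npvf: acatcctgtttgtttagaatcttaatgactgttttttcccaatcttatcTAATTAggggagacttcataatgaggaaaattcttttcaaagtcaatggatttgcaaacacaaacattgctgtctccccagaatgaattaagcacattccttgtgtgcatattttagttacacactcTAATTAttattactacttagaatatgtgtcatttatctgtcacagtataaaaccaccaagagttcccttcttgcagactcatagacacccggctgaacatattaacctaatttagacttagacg
Dlx6os1: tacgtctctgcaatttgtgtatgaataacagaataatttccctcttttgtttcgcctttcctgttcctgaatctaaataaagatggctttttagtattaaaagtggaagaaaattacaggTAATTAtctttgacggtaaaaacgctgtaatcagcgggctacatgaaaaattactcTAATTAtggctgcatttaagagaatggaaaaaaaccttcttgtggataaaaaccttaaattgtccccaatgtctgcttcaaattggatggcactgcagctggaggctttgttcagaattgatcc
In Npvf and Dlx6os1, which step in opposite directions, the core TAATTA stands in 2 places each, starting at -201 and -74 in the first and at -130 and -74 in the second, counted from the annotated start.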

How the data were processed

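RNA of 34 brain fractions was measured on Agilent SurePrint G3 mouse arrays; the 6 coronal fractions 7 to 12 were analysed here, 1 array each. The scanner files deposited by the authors hold the signal intensity of each spot from Agilent Feature Extraction 10.10.1.1, with background flags. The table of log2 values deposited by the authors holds 43199 probes of 55681 on the array; 99.917% of its values were no further than 0.02 from the logged scanner signal after each array was shifted by 1 number, which differed from that array's 75th percentile by at most 0.0122. Probes were matched to RefSeq symbols through accessions (23369 of the table). The 2 sides were compared with limma 3.58.1 (R 4.3.3; lmFit, eBayes, Benjamini-Hochberg over all 32674 kept probes), tested on simulated data. Where a gene had several probes, the kept probe with the highest mean over the 6 arrays stood for it. The rule for named genes asked for an adjusted p under 0.05, no overlap of the sides and detection in all 3 fractions of the higher side, and took the 15 genes and 5 long noncoding RNA probes with the largest difference in each direction. With no such p reached, it was applied without that criterion. From each marker list, up to 5 sharp members by size and the first 3 genes were to be named; further list members were chosen after their values were seen. Members and the 23 lists were chosen with earlier results of these data known. Alternatives were other scalings (array median, quantile, normexp with an offset of 50), other filters, limma-trend, the slide as a block or within slide 3, and leaving out each fraction. A floor for dim values and the sagittal comparison within slide 4 were added after seeing the data. The number of arrays limits the precision. Columns of the table with no sample numbered 0. Promoters came from a RefSeq table that lacks some genes. Some genes are not reported here.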

Additional observations from a re-analysis of the deposited data

Results flagged for a closer look

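Among the 30 named genes, 3 had 1 fraction of coronal fractions 1 to 6 far from the other 5. By chance the rule flags about 1 in 20 groups of like repeats. Fractions 1 to 6 are consecutive slabs of 1 brain, so that rate does not hold here. Pmch stood at -3.12 in fraction 6, next to the step's first side, against -7.58 to -6.40 in the others. Irx2 was low in fraction 1, at -0.55, against 0.86 to 1.69. Epha1 was high in fraction 3, at -2.89, against -4.37 to -3.82.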

How the results depend on the processing

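No paired analysis was possible because the 6 fractions are consecutive slabs of 1 brain, with nothing that pairs a slab of 7-9 with one of 10-12. The 40 named genes and noncoding RNA probes were chosen for sides that do not overlap, which fixes their direction under most alternatives. Of 616 such values, 87 passed an adjusted p of 0.05, 31 of them under limma-trend and 30 under normexp. Limma called 0 probes higher and 0 lower under the processed signal, array median, both other filters and the random slide block. It called 1 higher and 0 lower with quantile normalization, 1985 and 984 with normexp, 742 and 676 with limma-trend, 1 and 5 with the slide as a fixed block and 2 and 13 within slide 3. Leaving out 1 fraction gave 0 to 759 higher and 0 to 607 lower, with the highest counts without fraction 10; without fraction 9 there were 1 and 6. Sharp counts, 297 higher and 442 lower, became 93 and 84 with normexp, 176 and 174 among probes detected on all 6, 1139 higher with no filter, and 189 and 244 with every value below -4.35 set to that level. Without 1 fraction they ranged from 319 to 490 higher and from 432 to 859 lower, with both highest counts without fraction 10 and 664 lower without fraction 9. Detection on one side only fell from 483 and 12 probes to 14 and 1 with the software's weaker flag. The sharp probes lower in 10-12 that were called higher in the sagittal middle numbered 75, 175 with fractions 4 to 8 as the middle and 3 within slide 4; the sharp probes higher in 10-12 that were called lower there numbered 47, 43 and 9. With fractions 4 to 8, 5.79% of all kept probes were called higher and 7.27% lower. Within slide 3 the list medians were -0.68 (thalamus), -0.24 (hypothalamus), -0.13 (midbrain and pretectum), -1.27 (Iroquois and Zic), 0.89 (striatal projection) and 0.37 (Dlx and GABA). Leaving out a fraction moved the medians to between -1.22 and -0.94 for the thalamus, -1.63 and -0.58 for the habenula, -1.73 and -0.83 for the hypothalamus, -1.64 and -0.62 for the midbrain, -2.68 and -1.38 for the Iroquois and Zic genes, 1.11 and 1.35 for the striatum, 0.50 and 0.71 for the basal forebrain and 0.70 and 1.01 for the Dlx genes. The causes were not tested, except that fewer probes or arrays entered where a filter or fraction changed. Probes near background are limited by the signal of the dimmer arrays of fractions 10 to 12.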
